A study of Mus musculus with 6 samples.

Results

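The complement system is the set of plasma and cell-surface proteins that mark microbes and damaged cells, and most of its soluble parts are made by hepatocytes. It was followed here through 30 genes, all of them among the 16123 genes of the deposited mouse liver table, picked by symbol as named parts of the classical, lectin, alternative and terminal arms with their inhibitors and receptors. The 6 libraries comprise 3 from mice trained on a treadmill and 3 from sedentary mice that did not use it, and each trained mouse ran 22 km over 6 weeks. The trained mice were killed 24 h after their final session, and mice were perfused with saline. The sources used here give no strain, sex, age or genotype, and do not say whether libraries of a group are separate mice. In the classical arm, C1q binds antibody on a surface and activates the proteases C1r and C1s, while in the lectin arm mannose-binding lectins and their proteases do the same on sugars. Both cut C4 and C2 to build an enzyme that splits C3, and the alternative arm, with factor B, factor D and properdin, amplifies that step. Split C3 leads on to C5, and a fragment of C5 starts the assembly of C6, C7, C8 and C9 into a membrane pore, with soluble and membrane-bound inhibitors at every stage.

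The 6 libraries held 17941303 to 18371949 counts. Comparisons used edgeR's quasi-likelihood test on TMM-scaled counts, with p-values adjusted by the Benjamini-Hochberg method over the 10266 genes whose FPKM, the deposited level per transcript length and library size, averaged at least 1. A gene was called at an adjusted p under 0.05, and log2 fold changes are exercise minus sedentary. Pairs of libraries were compared with counting noise over genes with at least 20 and fewer than 2000 reads summed over the pair. In that range libraries of a group were close to counting noise (mean chi-square per gene 1.13 to 1.21, where noise alone gives about 1). Between groups it was 4.51 to 4.81. C3 and other abundant members lie above that range, so these values do not cover them. The p-values measure the spread between these libraries, which may be partly technical. TMM set exercise values lower, relative to sedentary ones, than the deposited FPKM does. The liver label fits the 14 hepatocyte markers tested, whose summed FPKM was 87680 to 89260 in sedentary and 88690 to 89510 in exercise libraries, with 6 called lower and 8 higher. Of 13 liver endothelial markers 6 were called higher and 7 did not pass. Over all tested genes 19.0% were called lower and 19.1% higher. Among genes with a mean of at least 100 FPKM, a level that the hepatocyte markers all reach, these shares were 28.2% and 33.8%.

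Complement messenger RNA was lower in exercise livers, with C3 and C5 falling most among the members. Of the 27 members that passed the filter on low values, 23 fell, none rose and 4 (C1ra, C8g, Cd55 and Cd59a) did not pass. Over all tested genes 38.1% were called, 19.0% lower and 19.1% higher. At an unadjusted p under 0.05 the members numbered 23 lower and 1 higher, but the share of all tested genes at that threshold was not taken. DESeq2 called 21 members lower and none higher, where it called 1240 of all tested genes lower and 1272 higher. Limma on log2(FPKM + 1) called C8g higher, where it called 27.9% of all tested genes higher and 10.7% lower, and limma on log2(TPM + 1) called C8g and C1ra higher, where it called 36.2% higher and 8.91% lower. By deposited FPKM, 18 members were lower in every exercise library than in any sedentary one, beside 14.3% of all tested genes, and C1ra and C8g were higher in every one, beside 36.6%. The median log2 fold change of the 27 was −0.22, beside −0.000618 over all tested genes. Abundant genes are called more readily. Of 819 genes with a mean of at least 100 FPKM 28.2% were called lower and 33.8% higher, and of the 19 members at that level 17 were called lower and none higher. The 23 falls ranged from 1.05-fold to 1.51-fold. Against a change of 1.2-fold, 7 members passed, all lower (C3, Hc, C4b, C4bp, C9, Cfi and C8a), where 6.36% of all tested genes passed, 4.03% lower and 2.33% higher. With scaling by library totals in place of TMM, 17 members were called lower and C8g higher (11.7% and 34.4% of all tested genes), and C3, C4b and Hc passed the 1.2-fold test.

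**Figure D1:**
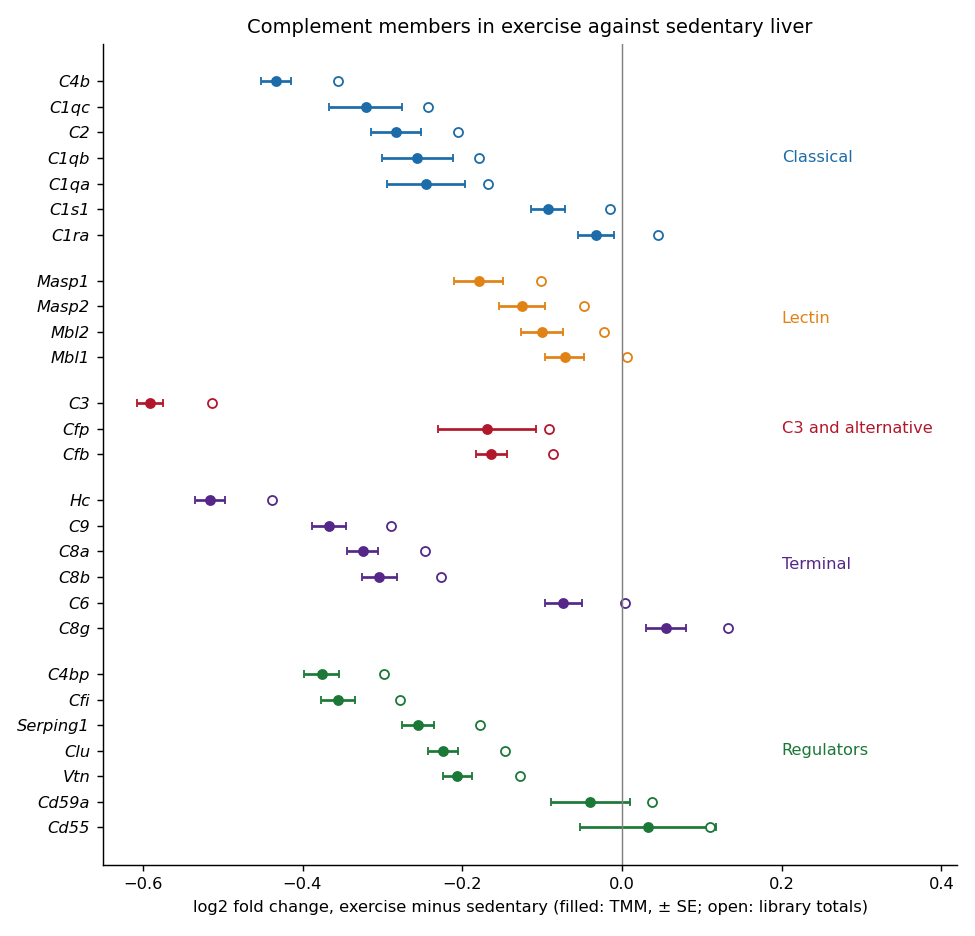
Log2 fold changes (exercise minus sedentary) of the 27 tested members by role. Filled points with bars are TMM-scaled values ± SE and open points are values with library totals as the scale. C3 lies lowest at −0.59 and C8g highest at 0.06, and 4 members (C1ra, Mbl1, C6 and Cd59a) change sign between the scalings.

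Summed over the 30 members, complement transcripts made up 1.45%, 1.44% and 1.44% of the deposited TPM in the sedentary libraries and 1.26%, 1.25% and 1.27% in the exercise libraries. C3 alone was 25.7% ± 0.190 of the members' summed FPKM in sedentary and 21.4% ± 0.133 in exercise livers (SD, n = 3). The most abundant members after C3 were the inhibitors vitronectin (Vtn) and clusterin (Clu). In bulk tissue, fewer cells of a type and less RNA per cell cannot be told apart.

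**Figure D2:**
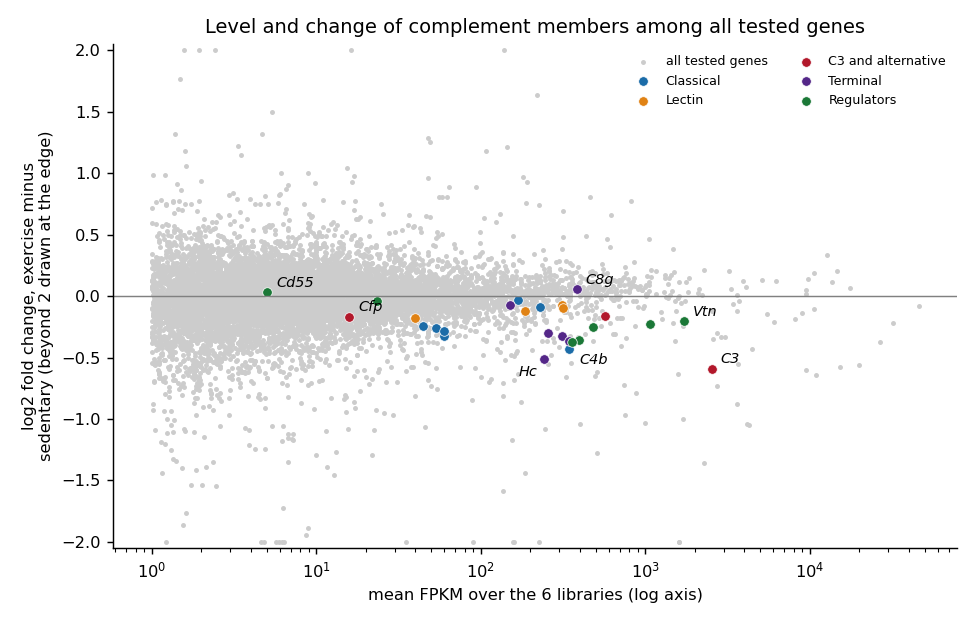
Mean FPKM over the 6 libraries (log axis) against the log2 fold change for all tested genes (grey) and for the complement members by role. Most members lie among the abundant genes and below 0, with C3 the most abundant at 2529 FPKM.

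C3, the protein on which all arms converge, fell most. Its FPKM was 3013, 2921 and 2950 in the sedentary libraries and 2094, 2103 and 2093 in the exercise libraries. The groups did not overlap and the exercise libraries were nearly equal to each other. By TMM-scaled counts C3, which lies at chr17:57203967-57228136 in GRCm38.p6, fell 1.51-fold (log2 fold change −0.59, SE 0.02, edgeR adjusted p = 2.36e-32). Factor B (Cfb), which joins split C3 in the alternative C3-cutting enzyme, was at 593, 579 and 594 FPKM in sedentary and 553, 548 and 560 FPKM in exercise libraries. It fell 1.12-fold (adjusted p = 1.33e-09). Properdin (Cfp), which stabilises that enzyme, was at 16.1, 15.9 and 17.1 against 15.2, 14.9 and 15.8 FPKM and was called 1.12-fold lower (adjusted p = 0.0241), but not by DESeq2 (0.152), by limma on log2(FPKM + 1) (0.122) or without sedentary replicate 3 (0.129), exercise replicate 1 (0.0696) or exercise replicate 2 (0.0813). Factor D (Cfd), the protease that cuts factor B and is made mainly by fat cells, had 10, 12 and 8 reads in sedentary and 6, 8 and 13 in exercise libraries. It was below the filter, and the fat cell markers Adipoq and Plin1 had at most 1 read in any library. Of the 6 fat cell markers tested, which liver also expresses in part, 2 fell, 2 rose and 2 did not pass. The shares over all tested genes were 19.0% lower and 19.1% higher. Within a library, the ratio of C3 to Cfb in FPKM was 5.08, 5.04 and 4.97 in sedentary and 3.79, 3.84 and 3.74 in exercise livers, a difference that no scaling between libraries touches. The ratios given here and below were chosen after the values were seen and are a description.

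The bases just before the start of the C3 gene are shown because C3 moved most and the human C3 promoter is known to answer to C/EBP factors. RefSeq gives promoter windows for 22 of the 30 members, and the 250 bases before each start were searched on both strands. The C/EBP motif TTGCNNAA was in 3 members (C1s1, C3 and C9) and in 9.56% of 27018 promoters of this length. The STAT motif TTCNNNGAA, which reads the same on both strands, was in C8a and Masp2 and in 7.18% of promoters. The interferon response motif (ISRE) was in Cd59a and in 3.04%, the NF-kB motif in C1qc and in 7.01%, and the HNF1 motif in Hc and in 0.133%. In the sequence, from RefSeq in GRCm38.p6 and written 5′ to 3′ along the gene's strand, capitals mark the motif, which begins 45 bases before the start.
C3, chr17:57228137-57228386, minus strand: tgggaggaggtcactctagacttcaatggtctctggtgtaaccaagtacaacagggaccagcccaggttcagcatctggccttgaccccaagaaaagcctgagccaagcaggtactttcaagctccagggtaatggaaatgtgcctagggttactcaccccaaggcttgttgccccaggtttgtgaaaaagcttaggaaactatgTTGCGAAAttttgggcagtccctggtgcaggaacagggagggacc

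In the terminal arm, 5 of 6 tested members fell, C5 (gene symbol Hc) most and C6 least, and the C8 gamma chain did not pass. Hc was at 280, 278 and 282 FPKM in sedentary and 207, 205 and 207 FPKM in exercise libraries. The groups did not overlap (SD 1.89 and 1.22 FPKM, n = 3), and Hc, at chr2:34983329-35068506, fell 1.43-fold (log2 fold change −0.52, SE 0.02, adjusted p = 1.89e-27). C9, which forms the wall of the pore, was at 372, 383 and 381 FPKM in sedentary and 314, 312 and 302 FPKM in exercise libraries. It fell 1.29-fold (adjusted p = 1.49e-19), again without overlap. C6, which joins C5b first, was at 147, 153 and 152 FPKM against 148, 153 and 150 FPKM. These groups overlapped, and although C6 was called 1.05-fold lower (adjusted p = 0.0114), it had a log2 fold change of 0.00426 with library totals. Its call was lost on leaving out sedentary replicate 2 (0.0574), sedentary replicate 3 (0.0543) or exercise replicate 1 (0.0797). The ratio of Hc to C6 was 1.91, 1.81 and 1.85 in sedentary and 1.40, 1.34 and 1.38 in exercise livers.

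C8 is built from an alpha and a beta chain, which resemble C6 and C9, and a gamma chain of the lipocalin family that is bonded to alpha. C8a was at 337, 338 and 340 FPKM in sedentary and 282, 288 and 285 FPKM in exercise libraries, and fell 1.25-fold (adjusted p = 5.01e-19). C8b went from 279, 280 and 275 to 233, 237 and 241 FPKM and fell 1.23-fold (adjusted p = 5.19e-16). C8g was at 379, 354 and 363 FPKM in sedentary and 398, 397 and 399 FPKM in exercise libraries. The exercise values of C8g all lay above the sedentary ones, while those of C8a and C8b all lay below. By TMM-scaled counts the C8g difference missed the threshold (0.06 on the log2 scale, SE 0.03, adjusted p = 0.0857), and without sedentary replicate 1, the highest of its group, its value was 0.08 (adjusted p = 0.0159). Without TMM it was called higher (0.13, adjusted p = 2.54e-05), as it was by limma on FPKM (0.00587). The ratio of C8g to C8a was 1.12, 1.05 and 1.07 in sedentary and 1.41, 1.38 and 1.40 in exercise livers, whereas C8b to C8a stayed between 0.809 and 0.845 in all 6 libraries.

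**Figure D3:**
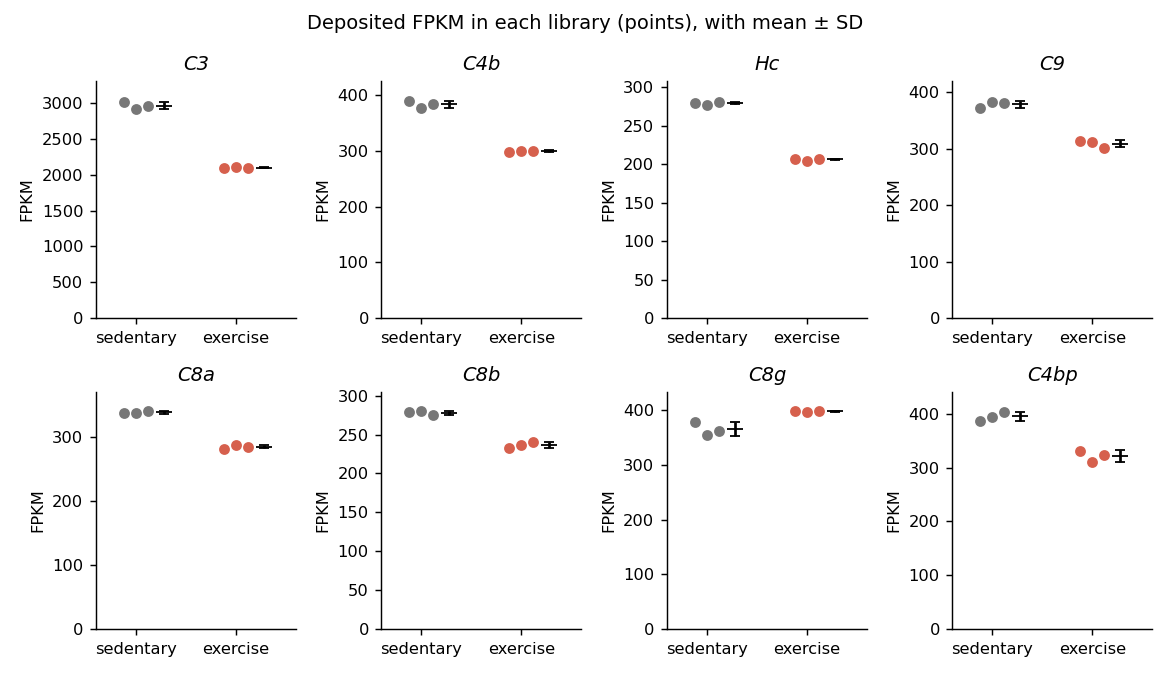
Deposited FPKM of 8 members in each library (points, 3 per group) with the mean ± SD of each group, on axes that start at 0. C3, C4b, Hc, C9, C8a, C8b and C4bp are lower in every exercise library than in any sedentary one, and C8g is higher.

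The promoter windows of these terminal genes are shown side by side because Hc, C9, C8a and C8b fell and C8g did not. They come from RefSeq in GRCm38.p6, 5′ to 3′ along each gene's strand, without bases of the annotated gene, except that the Hc window lies upstream of the start used in RefSeq's promoter table and in GENCODE but inside the longer span that RefSeq gives for the gene. For Hc only bases of a GENCODE exon were left out. Capitals mark the HNF1 match of Hc, which lies on the opposite strand 79 bases before the start, the C/EBP match of C9 at 132 bases and the STAT match of C8a at 228 bases. C8b and C8g held none of the motifs searched for. RefSeq gives C8g another window, at chr2:25500507-25500756, which is not shown and held none of them either.
Hc, chr2:35061439-35061662, minus strand: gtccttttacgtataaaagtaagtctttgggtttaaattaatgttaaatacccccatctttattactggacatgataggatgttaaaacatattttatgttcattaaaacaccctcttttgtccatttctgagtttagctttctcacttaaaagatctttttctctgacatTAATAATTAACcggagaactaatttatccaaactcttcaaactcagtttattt
C9, chr15:6445096-6445326, plus strand: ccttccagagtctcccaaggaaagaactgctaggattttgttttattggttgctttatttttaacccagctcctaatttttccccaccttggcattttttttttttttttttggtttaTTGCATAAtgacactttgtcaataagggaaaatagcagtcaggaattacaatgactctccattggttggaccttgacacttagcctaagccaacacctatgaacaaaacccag
C8a, chr4:104876488-104876648, minus strand: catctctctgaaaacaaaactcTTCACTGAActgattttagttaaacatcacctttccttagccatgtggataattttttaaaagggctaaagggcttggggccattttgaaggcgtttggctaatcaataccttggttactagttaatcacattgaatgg
C8b, chr4:104766067-104766316, plus strand: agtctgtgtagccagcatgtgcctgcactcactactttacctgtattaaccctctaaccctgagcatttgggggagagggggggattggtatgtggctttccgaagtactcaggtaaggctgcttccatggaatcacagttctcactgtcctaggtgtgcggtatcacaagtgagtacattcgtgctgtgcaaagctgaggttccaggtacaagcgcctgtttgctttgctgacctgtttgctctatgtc
C8g, chr2:25501778-25501969, minus strand: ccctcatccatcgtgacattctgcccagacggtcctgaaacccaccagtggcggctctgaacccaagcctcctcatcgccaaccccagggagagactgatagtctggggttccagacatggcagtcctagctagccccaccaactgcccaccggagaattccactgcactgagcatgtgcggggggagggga

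In the classical arm, 6 of 7 members fell and C1ra did not pass. C4b, the mouse C4 that is cut by C1s, was at 389, 377 and 384 FPKM in sedentary and 298, 300 and 301 FPKM in exercise libraries. It fell 1.35-fold (log2 fold change −0.43, SE 0.02, adjusted p = 1.29e-24). C2, the protease that joins C4b, went from 65.3, 61.7 and 65.8 to 57.7, 54.6 and 54.7 FPKM and fell 1.22-fold (adjusted p = 1.58e-10). The proteases of C1 moved less. C1s1 was at 229, 230 and 234 against 232, 231 and 223 FPKM, groups that overlap, and was called 1.07-fold lower (adjusted p = 0.000536) but not with library totals (0.604). C1ra was at 165, 167 and 168 FPKM in sedentary and 169, 171 and 175 FPKM in exercise libraries, with a log2 fold change of −0.03 (adjusted p = 0.275) that became 0.0769 by limma on TPM (0.0274). Counts of C1ra, C4b and Cd59a were not whole, so some of their reads may be shared with near copies.

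The A, B and C chains of C1q, which assemble together and in liver come mainly from Kupffer cells, fell by similar amounts. C1qa went from 47.6, 46.3 and 47.8 to 40.2, 43.0 and 42.2 FPKM and C1qb from 56.9, 56.5 and 57.3 to 50.9, 48.5 and 50.5 FPKM. C1qc went from 69.6, 62.6 and 63.4 to 53.6, 55.2 and 55.5 FPKM. No exercise library reached a sedentary one in any chain, and the falls were 1.19-fold, 1.19-fold and 1.25-fold (adjusted p = 6.56e-05, 6.38e-06 and 1.37e-07). Markers of Kupffer cells and other macrophages moved with them only in part. Of 17 such markers 10 fell, Mrc1 rose and 6, Timd4, Vsig4 and Cd163 among them, missed the threshold. Over all tested genes 19.0% were lower and 19.1% higher. The rise of Mrc1 was 1.12-fold, but it was not called without sedentary replicate 3 or exercise replicate 2 (adjusted p = 0.0545 and 0.0565). The median log2 fold change of the 17 was −0.22. Their summed FPKM was 391.8 to 399.0 in sedentary and 333.7 to 343.3 in exercise libraries. Most of that difference was Cd5l (mean 76.28 against 60.71 FPKM), Lyz2 (80.05 against 67.54 FPKM) and Mpeg1 (26.16 against 17.3 FPKM). None of the 17 was at 0, Clec4f had 1962, 2068 and 2084 reads in sedentary and 1781, 1679 and 1845 in exercise libraries, and Timd4 did not pass (129, 144 and 140 against 147, 148 and 139 reads). Their part in the fall of C1q was not tested.

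All 4 lectin arm members were called lower, with a median log2 fold change of −0.11, beside −0.26 in the classical and −0.31 in the terminal arm. Its recognition proteins Mbl1 and Mbl2 were at 311, 318 and 305 and at 331, 323 and 307 FPKM in sedentary libraries, against 311, 305 and 319 and 316, 313 and 312 FPKM in exercise libraries. Their groups overlapped. Both were called lower by TMM-scaled counts (1.05-fold and 1.07-fold, adjusted p = 0.0184 and 0.00216), but neither was with library totals (log2 fold changes 0.00593 and −0.0225). Mbl1 did not pass by DESeq2 (0.0622) or without sedentary replicate 2 (0.0733), exercise replicate 1 (0.055) or exercise replicate 2 (0.083). Masp1, a protease that starts the arm, went from 40.7, 42.3 and 41.8 to 38.5, 37.5 and 37.7 FPKM and fell 1.13-fold (adjusted p = 5.02e-06). Masp2, the protease that cuts C4 and C2, was called 1.09-fold lower by counts (adjusted p = 0.000493). Its FPKM was 192, 178 and 190 in sedentary and 187, 173 and 195 in exercise libraries, which overlap, and with library totals it did not pass (0.182).

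Of the 7 inhibitors, the 5 soluble ones fell and the membrane-bound Cd55 and Cd59a did not pass. C4b-binding protein (C4bp) was at 387, 395 and 404 FPKM in sedentary and 331, 310 and 324 FPKM in exercise libraries and fell 1.30-fold (adjusted p = 2.1e-19). Factor I (Cfi), the protease that inactivates split C3 and C4, went from 430, 433 and 441 to 352, 361 and 359 FPKM and fell 1.28-fold (adjusted p = 2.08e-19). C4bp is a cofactor of Cfi, and their ratio, Cfi to C4bp, was between 1.06 and 1.16 in all libraries. Serping1, the C1 inhibitor, went from 512, 513 and 507 to 451, 451 and 450 FPKM and fell 1.19-fold (adjusted p = 9.44e-15). Vtn and Clu, which keep soluble pore complexes out of membranes, went from 1834, 1787 and 1767 to 1650, 1625 and 1641 FPKM and from 1128, 1120 and 1110 to 1004, 1005 and 1017 FPKM. No groups overlapped among these 5 genes, and Vtn and Clu fell 1.15-fold and 1.17-fold (adjusted p = 3.76e-13 and 4.87e-14).

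Cd55, which takes C3-cutting enzymes apart on the cell surface, had 235, 208 and 245 reads in sedentary and 212, 252 and 268 in exercise libraries (log2 fold change 0.03, SE 0.09, adjusted p = 0.798). Cd59a, which stops C9 from joining the pore, was at 21.9, 23.7 and 23.9 against 23.5, 23.9 and 23.7 FPKM (log2 fold change −0.04, SE 0.05, adjusted p = 0.565). The receptors for the fragments C3a and C5a were at low levels. C3ar1 had 60, 40 and 53 reads in sedentary and 51, 39 and 57 in exercise libraries, and C5ar1 had 11, 17 and 11 against 12, 18 and 7. Both were below the filter with overlapping groups. In the fit without a filter the log2 fold change was −0.11 for C3ar1 (SE 0.18, edgeR adjusted p = 0.726). For C5ar1 it was −0.12 (SE 0.36, adjusted p = 0.853), so its few reads would show only a large difference.

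Outside the 30 members, the table held 33 genes of a wider list of the pathway and of proteins that touch it. That list includes F2, Plg and Klkb1, which belong to coagulation and fibrinolysis. Of the 23 tested, 9 fell (F2 and Plg among them), 2 rose and 12 missed the threshold. Over all tested genes 19.0% were lower and 19.1% higher. Their median log2 fold change was −0.05. With library totals 8 were called lower and 9 higher, where 11.7% of all tested genes were lower and 34.4% higher. The pentraxin Apcs, which binds C1q and is the serum amyloid P component of mice, went from 266, 274 and 267 to 106, 107 and 98.9 FPKM and fell 2.71-fold (adjusted p = 1.57e-36). Its relative Crp was at 198, 213 and 205 against 212, 215 and 214 FPKM and did not pass (adjusted p = 0.694), though it was called higher with library totals (0.0408). Cpb2 and Cpn2, which belong to carboxypeptidases that trim C3a and C5a, fell 1.34-fold and 1.25-fold (adjusted p = 3.31e-19 and 2.28e-16). Itgb2, the beta chain of the complement receptors of leukocytes, fell 1.24-fold (adjusted p = 0.00993), but not without sedentary replicate 1 (0.165) or by DESeq2 (0.0774). The collectin genes Colec10 and Colec11, which feed the lectin arm, were the 2 that rose, 1.24-fold and 1.17-fold (adjusted p = 1.31e-05 and 0.00242). Colec10 went from 5.07, 5.07 and 5.22 to 6.72, 6.54 and 6.76 FPKM, with no overlap. The list of stellate cell and mesothelial markers, which holds Colec11, had 4 of 7 tested genes higher, Col3a1 lower and 2 not passing. Its summed FPKM was 98.4 to 100.3 in sedentary and 120.5 to 122.0 in exercise libraries, most of the difference being Dcn (mean 62.6 against 79.9 FPKM) and Colec11 itself (19.5 against 23.7 FPKM). The part of those cells was not tested.

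Complement genes that lie near each other did not always move together. C8a and C8b, neighbours on chromosome 4, fell alike, as did the C1q chains within 18719 bases of the same chromosome. In the MHC class III region of chromosome 17, C4b fell 1.35-fold, C2 1.22-fold and Cfb 1.12-fold. The copy C4a, the sex-limited protein of mice, went from 13.9, 14.1 and 13.9 to 5.98, 5.84 and 6.18 FPKM, a fall of 2.45-fold (adjusted p = 1.81e-29). Counts of C4a and C4b were not whole, so reads of these near-identical genes may be split with error. Their summed count nevertheless was 37600, 36200 and 36900 in sedentary and 27900, 27900 and 28100 in exercise libraries, rounded to 3 digits, and C4a held 3.42%, 3.58% and 3.47% against 1.95%, 1.9% and 2.0% of it. On chromosome 6, C1rl, one of the other pathway genes, fell 1.19-fold (adjusted p = 3.52e-09) while its neighbour C1ra did not pass. C4bp and Cd55, within 231860 bases of chromosome 1, differed as described above. So did C6 and C9, which lie far apart within 1771759 bases of chromosome 15.

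**Figure D4:**
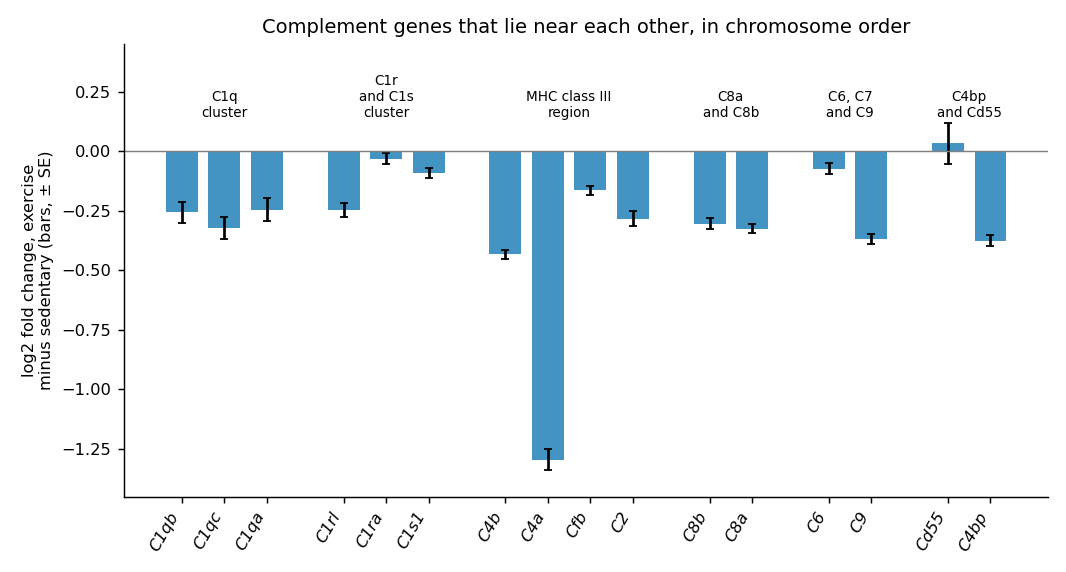
Log2 fold changes (bars, exercise minus sedentary, with SE) of complement genes that lie near each other, in order along the chromosome. C4a at −1.29 stands below C4b, Cfb and C2.

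**Figure D5:**
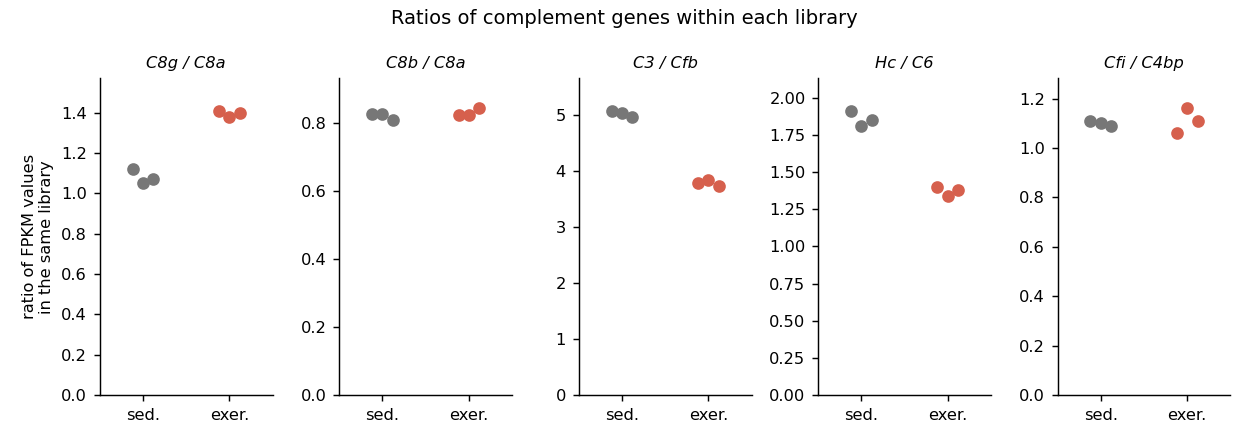
Ratios of deposited FPKM between pairs of complement genes in the same library (points, 3 per group), on axes that start at 0. C8g to C8a is higher in the exercise libraries, C8b to C8a and Cfi to C4bp overlap between the groups, and C3 to Cfb and Hc to C6 are lower.

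Of the cytokines and factors known to act on complement genes, 19 of 22 were tested, with 7 lower, 4 higher and 8 not passing, where 19.0% of all tested genes were lower and 19.1% higher. Stat3 and Cebpb, which drive the acute phase response to interleukin 6, fell 1.19-fold and 1.28-fold (adjusted p = 4.03e-09 and 1.51e-08), and Socs3, a feedback inhibitor that Stat3 induces, fell 1.78-fold (adjusted p = 1.16e-10). Cebpa, the more abundant C/EBP gene at a mean of 134 FPKM, did not pass (log2 fold change 0.02, adjusted p = 0.551). Neither did Cebpd, Il6ra and Il6st. The hepatocyte factor Onecut1 fell 6.65-fold and Hnf4a rose 1.21-fold (adjusted p = 9.79e-26 and 2.55e-15). Il1b rose 1.53-fold and Nfkbia, an inhibitor of NF-kB, 1.28-fold (adjusted p = 0.00184 and 1.19e-05), and Rela rose 1.12-fold (adjusted p = 0.00399). Of 4 tested neutrophil markers Prtn3 fell and 3 did not pass. The summed FPKM of all 12 in that list was 21.6 to 28.9 in sedentary and 11.4 to 13.7 in exercise libraries. Prtn3 alone went from a mean of 10.2 to 1.14 FPKM and makes up most of that difference, and Camp had at most 1 read in any library. The part of these cells in the results was not tested.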

How the data were processed

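Liver RNA in 3 exercise and 3 sedentary libraries was read in pairs on a DNBseq instrument after TRIzol extraction, and reads of low quality were removed, per the labels' protocols. The submitters' processing notes name GRCm38.p6 as build and MultiQC, featureCounts and cutadapt as tools. No version, aligner, annotation or strand setting is given in the sources used here. Per the file headers, the authors deposited a read count, an FPKM and a TPM for each gene and library. The deposited values are estimated counts, since 1165 genes had one that was not whole (tolerance 1e-09), and they were rounded here. The 6 columns of averages were not used.

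Columns were matched to samples by description and samples to groups by treatment label. Counts were fitted with edgeR 4.0.16 in R 4.3.3 (TMM, quasi-likelihood F test, no covariates, mean FPKM of at least 1, and glmTreat against 1.2-fold). A check of the code on simulated data required recovery only of changes larger than that of any member. It therefore does not bear on the small changes reported here or on the choice of scaling. Each SE was taken from the fold change and its F statistic. Alternatives used DESeq2 1.42.0 and limma 3.58.1 on log2(FPKM + 1), log2(FPKM + 0.1) and log2(TPM + 1), other scalings and filters, a replicate block and each library left out. The members and gene lists were chosen with earlier results of these data known. All members were named by role, with values by library for called log2 fold changes of at least 0.4, for the 3 most abundant and for role or subunit comparisons, and so were up to 6 genes with the largest called changes of the other pathway genes and of the factors. Values by library of further members, the collectins, Crp, Stat3, Hnf4a and single cell markers were added after they were seen. So were the results for C1rl, Cebpa, Cebpd, Il6ra, Il6st and Rela. Gene positions and promoters are RefSeq's. Of the list symbols, C1s2, Fcnb, Cd55b, Daf2, Lep, Retn and Tf were not analysed here. Some genes of the other lists count in the totals but are not reported singly.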

Additional observations from a re-analysis of the deposited data

How the results depend on the processing

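Of the 23 lowered members, 17 fell and were called in the main fit and all 16 alternatives, and the others (C1s1, Mbl1, Mbl2, Masp2, Cfp and C6) were lost in at least 1. With library totals, 18 members were called (1 higher), 3 passed 1.2-fold, the median log2 fold change was −0.146, and 17 other pathway genes were called. By limma, 1 member was called higher on log2(FPKM + 1) and on log2(FPKM + 0.1), each with a median of −0.15, and 2 on log2(TPM + 1), with a median of −0.116. Without a filter the median was −0.197. Where a gene was called before or after, signs turned with library totals for Mbl1 (0.00593), C6 (0.00426) and Crp (0.0631). They turned by limma on TPM for C1ra (0.0769), C1s1 (0.0172), Mbl1 (0.0364), Mbl2 (0.00536), Masp2 (0.0224), C6 (0.0292), Crp (0.0936) and F2 (0.00759), and by both limma fits on FPKM for Mbl1 (0.00187). Without a call on either side, C1ra turned to 0.0453 and Cd59a to 0.038 with library totals, and both turned in the limma fits on FPKM (0.0425 and 0.0327 with 1 added), as did Cd59a on TPM (0.0664). Cd55 turned without sedentary replicate 2 (−0.031) or exercise replicate 3 (−0.0401). The fits with library totals and by limma take no account of the TMM factors (0.972 to 0.977 in sedentary and 1.03 in exercise libraries). Those without a filter or with a library left out were TMM-scaled.

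Over all genes DESeq2 called 2512 against 3913. The split of higher to lower calls was 1961 to 1952, and it was 3536 to 1203 with library totals, 2868 to 1099 by limma on log2(FPKM + 1), 2856 to 1096 on log2(FPKM + 0.1) and 3716 to 915 on log2(TPM + 1). With 1 library left out, 3402 to 3491 genes, 20 to 24 members (20 to 23 lower and 0 to 1 higher) and 11 to 12 other pathway genes were called, 7 to 8 members passed 1.2-fold, and the median was −0.233 to −0.213. Replicate numbers did not pair the samples (correlation of deviations −0.0365, −0.0252 and −0.03 for equal numbers). With a replicate block 3846 genes and 23 members were called. Depth limits Cfd and C5ar1 most, and C3ar1 less.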
